A study of Mus musculus with 60 samples.

Results

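Neurons of the chromosome 12 Xist transgene line were sequenced from 2 sources, labelled 20 and 38, and their 4 libraries are compared here, out of 60 in the series. The libraries were taken by their labels. Each source has 1 untreated library and 1 library of cells treated with doxycycline at 2 µg/ml, and the neurons were collected on day 14 of differentiation. The libraries are called 55-20 and 55-38 below. All come from female F1 2-1 mouse ESCs of a 129/Sv by Cast/Ei cross. These carry a doxycycline-responsive M2rtTA activator in ROSA26 and an inducible Xist transgene on chromosome 12. In clone 55 the transgene is on the 129 copy, and chromosome 12 is present with an additional Cast copy. The labels place the transgene on chromosome 12 for both sources but do not tie the number 20 to clone 55 by name. The allele and site of the clone 55 transgene are therefore assumed for 55-20 throughout, including all distances from it. A subline cannot be told apart here from its single differentiation. With 1 library for each subline and treatment, an exact permutation of the subline within each treatment cannot give a two-sided p below 0.5, and each library's value is given.

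Xist is the long non-coding RNA that coats the chromosome it is made from and silences genes in cis during X chromosome inactivation. Placed on an autosome, it can silence autosomal genes, and in a hybrid line this is read from the alleles. When the 129 copy of chromosome 12 is silenced, the share of Cast reads among all allele-specific reads of its genes, the Cast/all ratio, goes up. The same ratio also depends on how many copies of each parental chromosome are read. With equal reading of every copy it would be 0.5 for 1 Cast and 1 129 copy, 0.667 for 2 Cast to 1 129, 0.75 for 3 Cast to 1 129 and 0.333 for 1 Cast to 2 129.

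The 4 libraries held 7068712 to 10698003 allele-specific reads, in which a read can count more than once, and 25057343 to 32336068 reads counted on genes. A total of 11292 genes were listed in all 4 libraries, and 11210 of them had at least 10 counts in each. The libraries did not stand equally far apart. In log2 counts scaled to library size (CPM), the untreated and treated 55-20 libraries correlated across genes with a Pearson r of 0.990, and 93 of 11210 genes (0.830%) differed by more than 2-fold. The same pair of 55-38 correlated with 0.949, and 858 genes (7.65%) differed by more than 2-fold. The treated 55-38 library was nearer to the untreated 55-20 library (0.964) than to the untreated 55-38 library, which therefore stood apart in expression. The treated 55-20 library stood apart in its allele reads. Its median number of allele-specific reads per counted read was 0.307, against 0.357 to 0.364 in the others. Ratios were compared in 8160 genes of all chromosomes with at least 100 allele-specific reads in each library. In the treated 55-20 library, 10 genes outside chromosomes 12 and 19 lay more than 0.3 from the median of the other 3 libraries. This number was 0 in the untreated 55-20, 3 in the untreated 55-38 and 0 in the treated 55-38 library. The median ratio over autosomes other than 8, 12 and 19 was 0.495 to 0.497 in all 4 libraries.

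Xist itself was read in all 4 libraries. The untreated 55-20 library had 3392 Cast and 3017 129 reads, and the treated one 16149 and 1908. The untreated 55-38 library had 3891 Cast and 8163 129 reads, and the treated one 15595 and 4166. The transgene was built from a Cast BAC, so its RNA carries Cast alleles like that of the Cast X chromosome, and both are summed. The Cast/all ratio of Xist was 0.529 and 0.894 in untreated and treated 55-20, and 0.323 and 0.789 in 55-38, so it was higher with doxycycline in both sublines and higher in 55-20 at each treatment. The difference between sublines was 1.21 ± 0.07 (SE) on the log2 scale of Cast to 129 reads, with an adjusted p of 2.47e-10 in edgeR's quasi-likelihood test, where the doxycycline effect was taken as equal in both. This value changed sign when the treated 55-20 or the untreated 55-38 library was left out, to -0.25 and -0.28. Those fits have no doxycycline term and leave the sublines unequal in treatment. The change of sign therefore cannot be told apart from the response of Xist to doxycycline. In total reads, Xist stood at 602 and 2346 CPM in untreated and treated 55-20 and at 1100 and 1566 CPM in 55-38. The sublines overlapped, and the log2 difference in expression was -0.14 ± 0.37 (SE), with an adjusted p of 0.824. The library kit does not mark the strand, so reads of Xist and its antisense gene Tsix cannot be separated.

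On chromosome 12, 55-20 had a higher Cast/all ratio than 55-38 at both treatments. Over 436 genes, the median ratio was 0.755 in untreated and 0.828 in treated 55-20, and 0.659 in untreated and 0.732 in treated 55-38. The treated 55-38 library thus lay below the untreated 55-20 library. The difference between sublines was 0.0957 in the untreated and 0.0956 in the treated pair, with a mean of 0.0957 and an exact permutation p of 0.5, the smallest this design allows. The lower and upper quartiles of the genes were 0.719 and 0.784 in untreated 55-20 and 0.627 and 0.695 in untreated 55-38. These ranges did not meet. With doxycycline the quartiles were 0.779 and 0.875 in 55-20 and 0.688 and 0.788 in 55-38, and these ranges overlapped. Of the 436 genes, 89.2% had the higher ratio in 55-20 in both pairs, against 13.2% (chromosome X) to 33.4% (chromosome 8) on the other chromosomes apart from 19. In 259 of 436 genes both 55-20 values lay above both 55-38 values, against 21.6% of all 11292 genes. The difference was spread along the chromosome. In 6 windows of 20 Mb it lay between 0.0880 and 0.105 untreated and between 0.0845 and 0.120 treated. In undifferentiated ESCs of label 38, the ratio was 0.661 and 0.667 in 2 untreated libraries, close to that of untreated 55-38 neurons.

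**Figure D1:**
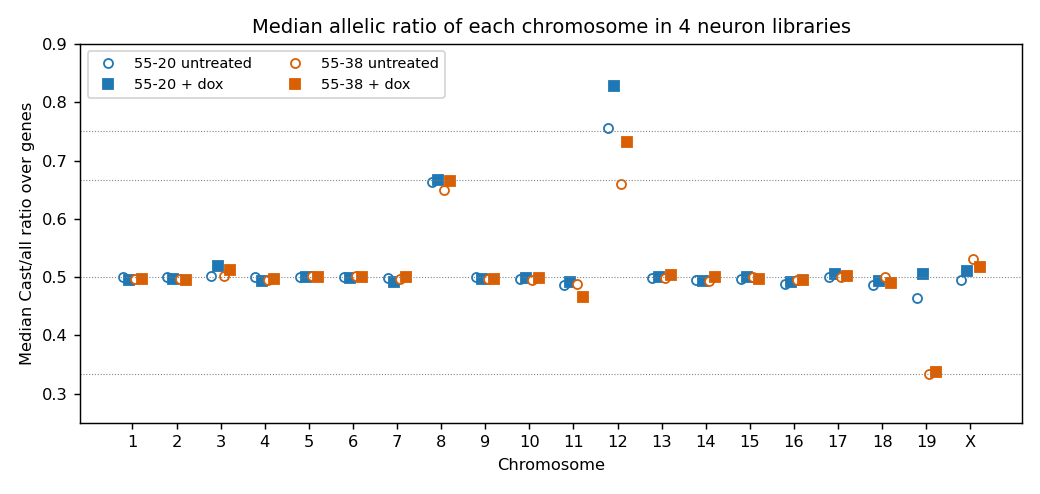
Median ratio of Cast to all allele-specific reads on each chromosome (y axis) for chromosomes 1 to 19 and X (x axis) in the 4 neuron libraries, with open circles for untreated and filled squares for doxycycline, blue for 55-20 and orange for 55-38. Dotted lines mark 0.333, 0.5, 0.667 and 0.75. The 55-20 points lie above the 55-38 points on chromosomes 12 and 19, by means of 0.0957 and 0.149.

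The level of each allele was then taken by itself. Median Cast reads of chromosome 12 genes, per library, were higher in 55-20 by 0.48 (log2) in the untreated and 0.54 in the treated pair. The 129 reads differed by -0.15 and -0.21. All reads counted on the genes were higher by 0.27 and 0.35, a mean of 0.31 with an exact permutation p of 0.5, the smallest possible. For comparison, 3 copies over 2 would differ by 0.585 and 4 over 3 by 0.415. Both 55-20 values lay above both 55-38 values in 250 of 433 genes and below in 45, where the background over all genes was 29.8% and 32.3%. Chromosome copies were not counted in these cells, so a difference in copies was not tested.

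**Figure D2:**
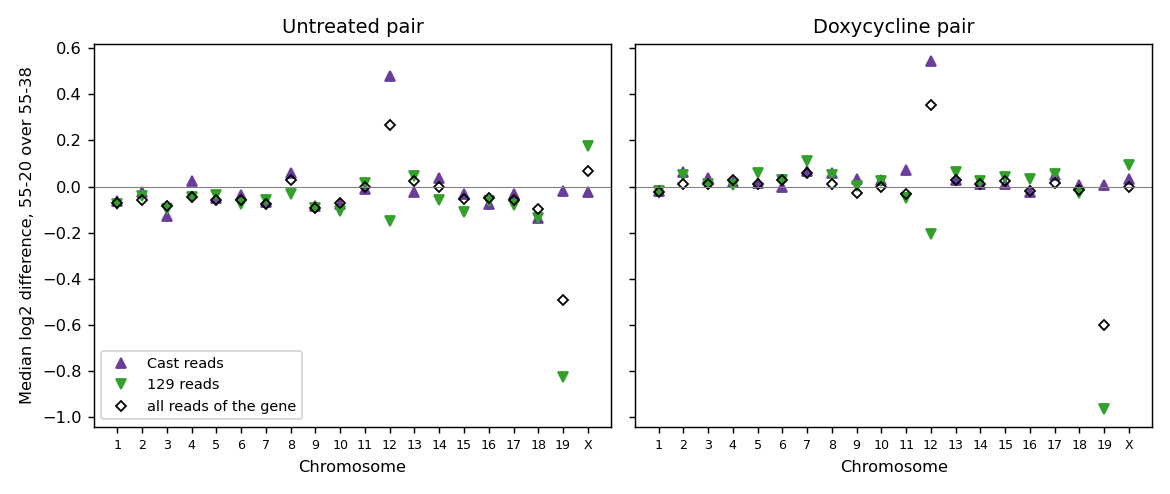
Median log2 difference of 55-20 over 55-38 over the genes of each chromosome, for the untreated pair (left) and the doxycycline pair (right), with upward triangles for Cast reads, downward triangles for 129 reads and diamonds for all reads of a gene. Chromosome 12 stands out by Cast reads (0.48 and 0.54) and chromosome 19 by 129 reads (-0.82 and -0.97).

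Chromosome 19 showed the other large difference. Over 393 genes, the median Cast/all ratio was 0.463 and 0.505 in untreated and treated 55-20, and 0.333 and 0.337 in 55-38. The sublines did not overlap, and differed by 0.130 untreated and 0.168 treated (mean 0.149, exact permutation p of 0.5, the smallest possible). Here the 129 reads carried the difference. They were lower in 55-20 by -0.82 and -0.97 (log2), while Cast reads differed by -0.02 and 0.01. Total expression differed by -0.49 and -0.60, with a mean of -0.55, where 2 copies over 3 would give -0.585 and 1 copy over 2, for the 129 reads alone, would give -1. Of 393 genes, 348 had both ratios of 55-20 above both of 55-38 and 1 had both below, against 21.6% and 16.3% of all genes. Both expression values of 55-20 lay below both of 55-38 in 307 of 388 genes, against 32.3% of all genes. The 7 windows of 10 Mb along the chromosome all showed it, with differences of 0.116 to 0.154 untreated and 0.146 to 0.178 treated. The 4 ESC libraries of label 38 had ratios of 0.333 to 0.345, like the 55-38 neurons. Within 55-20, the ratio was 0.0420 higher in the treated library, with 129 reads lower by -0.23, while in 55-38 it was 0.00361 higher with 129 reads at -0.04. The transgene is on another chromosome, the treated 55-20 library is the one that stood apart in allele reads, and the part of that in the shift was not tested.

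No other chromosome came near these values. On the remaining 18, the mean ratio difference ranged from -0.0216 (chromosome X) to 0.0115 (chromosome 11), and the mean expression difference from -0.06 (chromosome 9) to 0.03 (chromosome X) in log2. Chromosome 8 had a raised ratio in all 4 libraries, at 0.663, 0.667, 0.649 and 0.665, without a gap between sublines. On chromosome X, 394 genes had median ratios of 0.495 and 0.511 in untreated and treated 55-20 and 0.531 and 0.518 in 55-38. The 129 reads of X-linked genes were higher in 55-20 by 0.18 and 0.09 (log2), and 121 of 394 genes had both ratios of 55-20 below both of 55-38, against 16.3% of all genes. The X ratios of ESCs of label 38, 0.480 to 0.506, lay below both 55-38 neuron libraries.

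The alleles were then tested gene by gene. The ratio of Cast to 129 reads differed between sublines in 509 of 11292 genes (4.51%) by edgeR's quasi-likelihood test at a Benjamini-Hochberg adjusted p under 0.05, with the Cast share higher in 55-20 in 479 (4.24%) and lower in 30 (0.266%). Chromosome 12 held 215 called genes of 436 and chromosome 19 held 233 of 393, all with the higher Cast share in 55-20. The other chromosomes held 31 higher and 30 lower among 10463 genes. The number of calls rests on the libraries used. It was 346 without the untreated 55-20 library and 72 without the treated one. Without either 55-38 library it was 0, with 571 genes at an unadjusted p under 0.05 when the untreated library was left out and 824 when the treated one was. These fits of 3 libraries have no doxycycline term. DESeq2 called 112 genes.

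Among called genes the largest rise was on chromosome 19, in Fas, the cell surface death receptor. Its ratio was 0.790 and 0.767 in untreated and treated 55-20 and 0.223 and 0.552 in 55-38, a log2 difference of 2.65 ± 0.44 (SE, adjusted p of 0.000292 in edgeR). Npm3, a histone chaperone of the nucleoplasmin family on chromosome 19, had 0.163 and 0.546 in 55-20 and 0.0765 and 0.106 in 55-38. The treated 55-20 library was far above the rest there. Rbm4, an RNA-binding splicing regulator on the same chromosome, had 0.567 and 0.597 against 0.384 and 0.274. On chromosome 12, Dhrs7, a short-chain dehydrogenase, had 0.974 and 0.968 in 55-20 and 0.818 and 0.912 in 55-38. Ak7, an adenylate kinase of cilia, had 0.907 and 1 in 55-20, where the treated library had 191 Cast reads and 0 of 129, and 0.806 and 0.872 in 55-38. Dlk1, an imprinted transmembrane protein of the Notch ligand type, had 0.777 and 0.940 against 0.537 and 0.662. In each of these 6 genes both 55-20 values lay above both 55-38 values, as in 21.6% of all genes. The choice of genes called and higher in both pairs favours this. Outside both chromosomes, Apoa2, an apolipoprotein on chromosome 1, had 0.934 and 0.971 against 0.747 and 0.905.

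The 5 genes named for a lower Cast share in 55-20 fell into separate kinds. Cdh11, a cadherin of mesenchymal cells on chromosome 8, had ratios of 0.269 and 0.2 in 55-20 and 0.604 and 0.428 in 55-38 (log2 difference -1.88 ± 0.31 SE, adjusted p of 0.000206 in edgeR). Its expression was 22.3 and 19.4 CPM in 55-20 and 106 and 30.9 CPM in 55-38. Ccdc3, a secreted coiled-coil protein on chromosome 2, had 0.248 and 0.182 against 0.520 and 0.264. Both genes were highest in expression and in Cast share in the untreated 55-38 library. The other 3 rest on 1 library. Actb, the cytoplasmic actin, had 0.349 in untreated 55-20, 0.397 and 0.396 in 55-38 and 0.00471 in treated 55-20, where 4 reads were Cast and 846 were 129. Gm10653 and the pseudogene Rps15a-ps4 had ratios of 0.953 to 0.982 in 3 libraries, and 0.611 and 0.571 in treated 55-20. Reads of such multi-copy genes can be assigned to a near-identical copy, and their values are uncertain.

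The response of chromosome 12 to doxycycline was then set side by side in the sublines. The median ratio was higher in the treated library by 0.0725 in 55-20 and 0.0726 in 55-38. The odds of a 129 read against a Cast read changed by a factor of 0.642 in 55-20 and 0.709 in 55-38. Reads of the 129 allele, which carries the transgene, differed by -0.63 (log2) in 55-20 and by -0.47 in 55-38, while Cast reads moved by 0.06 and -0.02. Total expression of the chromosome moved by -0.11 and -0.12. The 18 chromosomes other than 12 and 19 shifted by -0.00717 to 0.0172 in 55-20 and by -0.0217 to 0.0164 in 55-38. Chromosome 19 shifted by 0.0420 in 55-20 and 0.00361 in 55-38, with 129 reads differing by -0.23 and -0.04. In 55-20 a shift was thus seen off chromosome 12 too, and its cause was not tested. A ratio higher by 0.1 to 0.5 was found in 154 of 436 genes (35.3%) in 55-20 and 132 (30.3%) in 55-38, with 86 in both. On autosomes other than 8, 12 and 19 the share was 8.07% and 5.14%. Among 381 chromosome 12 genes with at least 50 allele-specific reads in each library, the shifts in 55-20 and 55-38 correlated with a Pearson r of 0.537 and a Spearman rho of 0.530 across genes, against -0.0267 and -0.0225 on the other autosomes. Genes of 1 library share its depth, and no test is given.

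With 4 ESC libraries of label 38 added for the spread, 45 of 6777 genes (0.664%) had a changed allelic ratio upon doxycycline in 55-20 and 8 (0.118%) in 55-38, by the same test and adjustment. Each side of these comparisons is 1 neuron library, which is assumed to vary like the ESC replicates, so the calls compare libraries. Of 266 chromosome 12 genes tested, 22 and 6 were called, all with a higher Cast share. The difference between these responses was called for 12 genes (0.177%) overall and for 1 on chromosome 12. This was Zfp277, a zinc finger protein, at ratios of 0.509 and 0.815 in untreated and treated 55-20 and 0.473 and 0.491 in 55-38 (difference of responses 1.98 ± 0.30 SE in log2, adjusted p of 0.010 in edgeR).

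**Figure D3:**
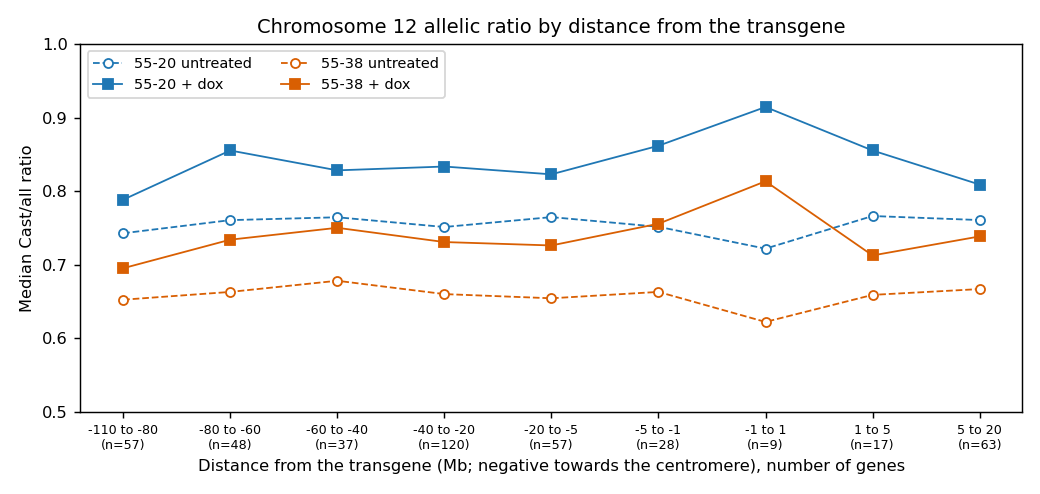
Median Cast/all ratio of chromosome 12 genes (y axis) in bins of distance from the transgene in Mb (x axis, negative towards the centromere, with the number of genes), for 55-20 in blue and 55-38 in orange, dashed without and solid with doxycycline. In both sublines the treated line peaks in the bin within 1 Mb, at 0.914 and 0.813, and both untreated lines are lowest there.

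The shift was largest near the transgene in both sublines. In the 9 genes within 1 Mb, the ratio had a median of 0.722 and 0.914 in untreated and treated 55-20 and 0.622 and 0.813 in 55-38. The median shift was 0.220 in 55-20 and 0.167 in 55-38, and 8 of 9 genes shifted by more than 0.1 in each. Between 1 and 5 Mb on the centromere side it was 0.118 and 0.105 over 28 genes. At 80 to 110 Mb on that side it was 0.0453 and 0.0240 over 57 genes, and 5 to 20 Mb on the other side 0.0440 and 0.0579 over 63 genes. The shift did not fall evenly with distance. At 60 to 80 Mb on the centromere side it was 0.103 and 0.0763 over 48 genes. On the other side it was 0.0795 and 0.0656 over 17 genes at 1 to 5 Mb.

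The 9 genes within 1 Mb started from unlike ratios in the untreated cells. Distances are to the intervals deposited with the genes, which can span less than the annotated gene. Dicer1, the RNase that makes mature microRNAs, lies 0.156 Mb from the transgene and had ratios of 0.747 and 0.857 in untreated and treated 55-20 and 0.622 and 0.756 in 55-38. The subline difference was 0.89 ± 0.11 (SE, log2, adjusted p of 6.58e-06 in edgeR). Glrx5, a mitochondrial glutaredoxin at 0.484 Mb, had 0.722 and 0.866 in 55-20 and 0.643 and 0.763 in 55-38, with a difference of 0.74 ± 0.14 (SE, adjusted p of 0.00148 in edgeR). Clmn, a calponin-like membrane protein at 0.225 Mb, had 0.695 and 0.914 against 0.608 and 0.775. With a library left out, and so no doxycycline term, the log2 differences ranged over 0.40 to 1.42 (Dicer1), 0.12 to 1.45 (Glrx5) and 0.016 to 2.24 (Clmn). These 3 of 9 passed the test of the subline over both treatments and the other 6 did not, where 49.3% of chromosome 12 genes and 4.51% of all genes passed. Tcl1, an AKT coactivator expressed in ESCs, at 0.667 Mb, had 0.521 and 0.877 against 0.318 and 0.813. It started lowest among the better covered genes and ended close to the others in both sublines. Serpina3m, a serine protease inhibitor at 0.149 Mb, was almost all Cast in each library, at 0.942 to 0.990. Snhg10, a small nucleolar RNA host gene at 0.476 Mb, had 0.375 and 0.857 in 55-20 and 0.351 and 0.844 in 55-38, from only 6 to 27 Cast and 2 to 37 129 reads per library. D430019H16Rik at 0.932 Mb reached 0.989 and 0.978 with doxycycline, Ppp4r4 at 0.930 Mb reached 0.941 and 0.938, and Syne3 at 0.407 Mb reached 0.947 and 0.788. Untreated, Syne3 was slightly lower in 55-20 (0.641) than in 55-38 (0.657).

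**Figure D4:**
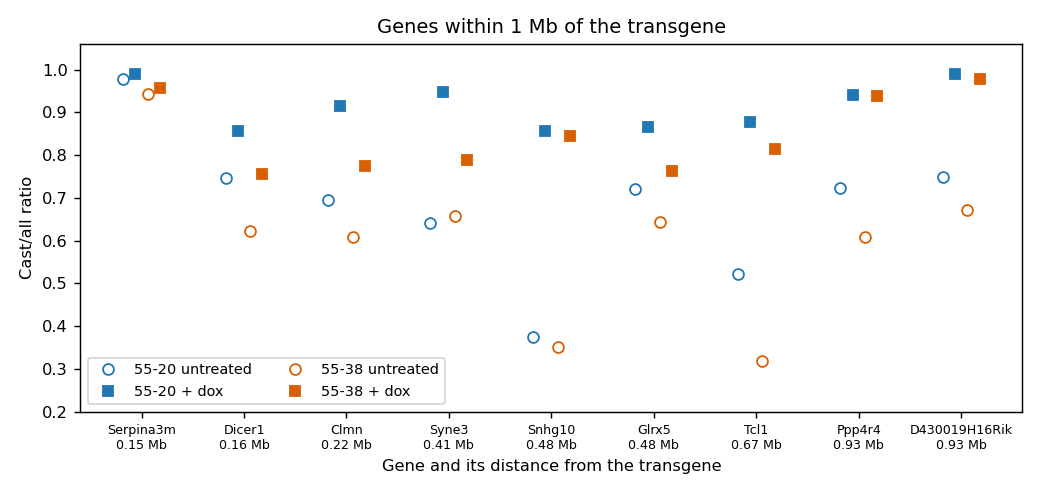
Cast/all ratio (y axis) of the 9 genes within 1 Mb of the transgene, ordered by distance (x axis, in Mb), with open circles for untreated and filled squares for doxycycline, blue for 55-20 and orange for 55-38. The square lies above the circle of the same subline in all 9 genes, and Tcl1 and Snhg10 start lowest.

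Nampt and Pole2, followed by the study farther away on chromosome 12, showed the same order of the sublines. Nampt, the rate-limiting enzyme of NAD salvage, lies 71.7 Mb from the transgene and had 0.721 and 0.861 in 55-20 and 0.654 and 0.719 in 55-38. Pole2, a subunit of DNA polymerase epsilon at 35.3 Mb, had 0.780 and 0.836 against 0.675 and 0.730. The subline differences were 0.83 ± 0.15 and 0.84 ± 0.14 (SE, log2) with adjusted p of 0.000664 and 0.000419 in edgeR. Pole2 also stood at 79.3 and 66.7 CPM in 55-20 and 34.2 and 36.3 CPM in 55-38, without overlap.

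In expression, edgeR's quasi-likelihood test, adjusted by Benjamini-Hochberg, called 0 of 11210 genes (0.00%) between sublines, with a lowest adjusted p of 0.0569. At an unadjusted p under 0.05 there were 3013 genes, 1201 higher in 55-20 (10.7%) and 1812 lower (16.2%). DESeq2 called 333 higher (2.97%) and 669 lower (5.97%). The count rests on the libraries used. With a library left out, the fit has no doxycycline term and leaves a single library in a subline. Its spread then comes only from the untreated and treated libraries of the other subline. These correlated with 0.990 in 55-20 and 0.949 in 55-38. The number of calls in such fits depends on the pair kept, and is no check of the genes below. Past 2-fold in both pairs were 47 genes higher (0.419%) and 217 lower (1.94%) in 55-20. The pairs were unlike in this. In the untreated pair 187 genes were higher (1.67%) and 903 lower (8.06%), and in the treated pair 233 (2.08%) and 462 (4.12%). Named genes below therefore did not pass the adjusted test, and their values are given as values.

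The state of the cells was read from marker genes. At day 14 all 4 libraries still held RNA of pluripotency genes. Pou5f1, the POU factor that maintains pluripotency, stood at 967 and 1073 CPM in untreated and treated 55-20 and at 562 and 733 CPM in 55-38. Nanog, a homeobox factor of the same network, stood at 172 and 263 CPM in 55-20 and at 112 and 205 CPM in 55-38. All 24 genes of the pluripotency list were listed in every library. The summed level of the 23 that were listed in ESC libraries of label 38 too was 3976 to 6823 CPM in the neurons and 11969 to 17930 CPM in the ESCs, on a scale common to those 8 libraries. Defining neuronal genes were low in 3 libraries. In bulk RNA, fewer cells of a type and less RNA per cell cannot be told apart.

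The pluripotency list was compared between sublines. Its median log2 difference was 0.58 in the untreated and 0.16 in the treated pair, where all genes had -0.05 and 0.00. Of 24 genes, 7 were higher and 1 lower in 55-20 without overlap, against 29.8% and 32.3% of all genes, and 9 were higher and 1 lower at an unadjusted p under 0.05, against 10.7% and 16.2%. Pou5f1 had a log2 difference of 0.67 ± 0.14 (SE) with an adjusted p of 0.0939 in edgeR, and both 55-20 values lay above both 55-38 values. Dppa5a, a KH-domain RNA-binding protein of ESCs, stood at 926 and 1265 CPM in 55-20 and 562 and 1110 CPM in 55-38, which overlapped. L1td1, an RNA-binding protein of ESCs, stood at 661 and 622 against 365 and 502 CPM. Lin28a, which blocks let-7 maturation, stood at 637 and 548 against 447 and 403 CPM. Klf4 went the other way, with 19.3 and 22.5 CPM in 55-20 and 35.3 and 50.6 CPM in 55-38 (Klf4 was picked after its values were seen). DESeq2 on all 4 libraries called 7 genes of the list higher and 1 lower in 55-20, against 2.97% and 5.97% of all genes.

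Cell cycle genes had slightly higher levels in 55-20. All 22 were tested. The median difference was 0.36 in the untreated and 0.15 in the treated pair, and 19 were higher in both pairs without overlap, against 29.8% of all genes. Mki67, the marker of cycling cells, stood at 495 and 528 CPM in 55-20 and 378 and 436 CPM in 55-38. Ccne1, the cyclin of the entry into S phase, had the lowest adjusted p of the list (0.0871 in edgeR), with 174 and 168 CPM against 92.2 and 114 CPM. DESeq2 on all 4 libraries called 1 gene of the list higher and 0 lower in 55-20, against 2.97% and 5.97% of all genes.

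Neuronal genes were high in a single library, the untreated 55-38. Of 18 genes of immature neurons, 14 were listed in it, against 10, 10 and 9 in untreated 55-20, treated 55-20 and treated 55-38. It also listed more genes of any kind, 13036 against 12488, 11818 and 12504 in the same order. All 9 that could be tested were highest there, against 3901 of all 11210 genes tested. Their median difference was -2.20 in the untreated and 0.29 in the treated pair. All 9 were more than 2-fold lower in 55-20 without doxycycline and 0 with it, against 8.06% and 4.12% of all genes. Dcx, a microtubule protein of migrating neurons, stood at 24.0 and 10.1 CPM in 55-20 and at 223 and 8.27 CPM in 55-38. Tubb3, the neuronal beta tubulin, stood at 79.7 and 73.5 against 232 and 48.0 CPM. Dpysl3, a protein of axon guidance, stood at 60.4 and 38.6 against 422 and 47.7 CPM. With this library left out the differences of Dcx, Tubb3 and Dpysl3 changed sign, to 1.05, 0.69 and 0.06, and edgeR called 3 genes of the list higher in 55-20 (6.62% of all genes) and 0 lower. Without the treated 55-38 library it called all 9 lower (19.5% of all genes).

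Many genes of mature neurons were also highest in the untreated 55-38 library, 9 of the 12 tested, against 3901 of all 11210 genes. All 24 were listed in the untreated 55-38 library, and 18, 13 and 14 in the other 3 libraries, which listed fewer genes of any kind. Map2, a dendritic microtubule protein, stood at 20.4 and 10.7 CPM in 55-20 and at 169 and 11.1 CPM in 55-38. Mapt, the axonal tau protein, stood at 21.1 and 21.3 against 212 and 20.0 CPM. Over the 12 genes tested, the median difference was -0.92 in the untreated and 0.34 in the treated pair. In the untreated pair 6 were more than 2-fold lower in 55-20, against 8.06% of all genes. Vamp2, a vesicle protein, had 28.3 and 23.6 against 110 and 44.8 CPM, lower in 55-20 in both pairs. Nefl, the light neurofilament chain, went the other way, with 77.8 and 66.2 against 43.7 and 25.3 CPM, and so did the heavy chain Nefh, picked after its values were seen, with 27.4 and 20.6 against 8.16 and 10.9 CPM. Gad1 (12.2 CPM), which makes GABA, was listed in the untreated 55-38 library alone (Gad1 was picked after its values were seen). So was Gfap, the astrocyte filament, at 67.1 CPM. A gene that is missing from a library is unlisted, not measured at 0.

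Progenitor genes were mixed. Of 21 neural progenitor genes, 20 were listed in the untreated 55-38 library and 13 to 16 in the others, which listed fewer genes of any kind. Their median difference over 13 tested genes was -0.50 untreated and 0.09 treated. Untreated, 4 of the 13 were more than 2-fold lower in 55-20, against 8.06% of all genes. Vim, an intermediate filament, stood at 438 and 421 CPM in 55-20 and 929 and 367 CPM in 55-38. Sox2, a factor shared by pluripotent and neural cells, stood at 133 and 162 against 157 and 161 CPM. Sox1, an early neural factor picked after its values were seen, was higher in 55-20 in both pairs, at 47.8 and 50.2 against 33.9 and 18.8 CPM. Forebrain and midbrain patterning genes gave -0.37 and -0.12 over the 2 of 12 that were tested. Hox genes gave -1.81 and 0.16 over the 6 of 39 that were tested. Of these 6, 5 were highest in the untreated 55-38 library, against 3901 of all 11210 genes. Astrocyte genes gave -1.66 and -0.36 over 5 of 10, and mesenchymal genes -1.19 and -0.28 over 6 of 14. Retinoic acid response genes gave -0.91 and -0.37 over 9 of 12, imprinted genes -0.19 and -0.23 over 24 of 35, and p53 targets 0.28 and 0.02 over all 12. The microglia list had 0 of 5 genes tested.

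Endoderm and epithelial genes had lower levels in 55-20 at both treatments. Of 13 genes, 11 were tested. All 11 were lower in 55-20 in both pairs without overlap, against 32.3% of all genes, with a median difference of -0.99 untreated and -1.46 treated, and 10 had an unadjusted p under 0.05, against 16.2%. DESeq2 on all 4 libraries called 6 of the 11 lower in 55-20, against 5.97% of all genes. Krt8 and Krt18, the keratin pair of simple epithelia, were highest in the treated 55-38 library. Krt8 stood at 262 and 259 CPM in 55-20 and at 337 and 833 CPM in 55-38. Krt18 stood at 180 and 150 against 249 and 583 CPM. Cdh1, the epithelial cadherin, stood at 633 and 597 against 756 and 883 CPM, and Epcam, an epithelial adhesion protein, at 171 and 178 against 193 and 213 CPM. Cdh1 and Epcam are also expressed in ESCs. The endoderm factors were lower in level. Sox17 stood at 4.89 and 6.35 CPM in 55-20 and 21.0 and 17.5 CPM in 55-38, and Foxa2 at 4.67 and 5.54 against 18.5 and 17.1 CPM. The secreted liver and yolk sac proteins Apoa1 and Ttr stood at 2.95 and 1.12 against 21.6 and 13.1 CPM and at 2.54 and 0.964 against 17.1 and 11.4 CPM. Sox17, Foxa2, Apoa1 and Ttr, and above Nanog, Ccne1, Dcx and Gfap, were picked after their values were seen.

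**Figure D5:**
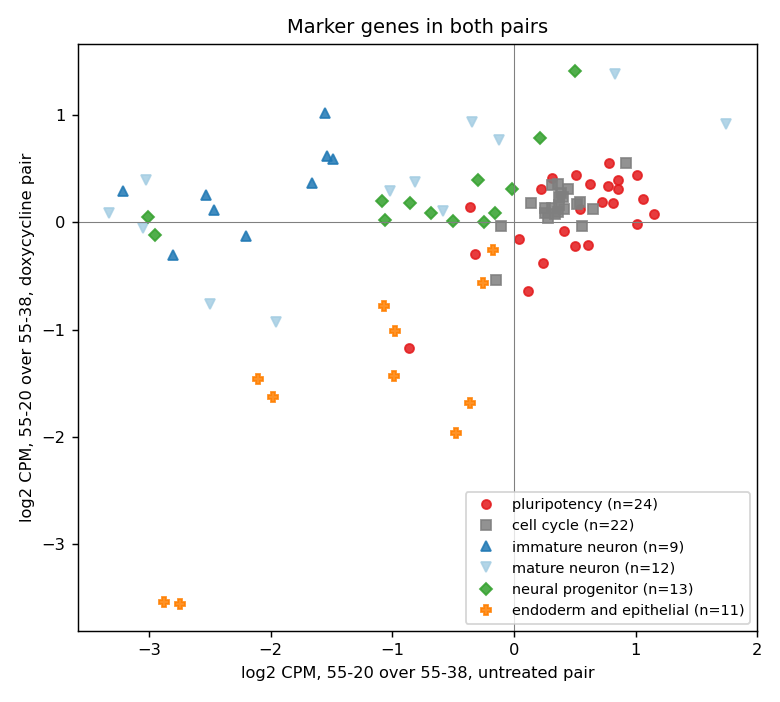
Log2 difference of 55-20 over 55-38 of each marker gene in the untreated pair (x axis) and the doxycycline pair (y axis), coloured by list, with the number of genes tested in each. Immature neuron genes lie far left near the zero line of the y axis (medians -2.20 and 0.29), while endoderm and epithelial genes lie in the lower left (medians -0.99 and -1.46).

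Since edgeR called no gene in expression, examples from the genes with its lowest p are named here after their values were seen, and their gap between sublines follows from that choice. Among those lower in 55-20, Col4a1, a chain of basement membrane collagen, stood at 824 and 782 CPM in 55-20 and 2916 and 3224 CPM in 55-38 (log2 difference -1.93 ± 0.17 SE, adjusted p of 0.0569 in edgeR). Its partner Col4a2 stood at 467 and 415 against 1689 and 1818 CPM, the laminin chain Lama1 at 275 and 310 against 763 and 1028 CPM, and the matrix protein Sparc at 326 and 343 against 868 and 863 CPM. Thbs1, a thrombospondin, stood at 153 and 109 against 649 and 509 CPM. The endocytic proteins Dab2, at 61.5 and 66.8 against 169 and 204 CPM, and Cubn, at 63.3 and 77.8 against 152 and 219 CPM, are known for their roles in visceral endoderm. Nr4a1, an immediate-early nuclear receptor, stood at 26.0 and 17.7 against 139 and 89.4 CPM, Dusp8, a MAP kinase phosphatase, at 20.1 and 10.6 against 101 and 57.1 CPM, Fosl2, an AP-1 subunit, at 18.3 and 15.7 against 148 and 77.3 CPM, and Hbegf, an EGF receptor ligand, at 19.8 and 12.2 against 93.3 and 76.5 CPM.

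Among genes with the lowest p on the side higher in 55-20, the following examples were also named after their values were seen. Jag2, a Notch ligand on chromosome 12, stood at 98.2 and 102 CPM in 55-20 and 47.7 and 43.8 CPM in 55-38. Cdca7l, a MYC-interacting protein on chromosome 12, stood at 117 and 87.5 against 55.5 and 42.6 CPM. Serpina3m, within 1 Mb of the transgene, stood at 16.5 and 21.2 against 2.32 and 2.06 CPM, a log2 difference of 3.10 ± 0.27 (SE, adjusted p of 0.0569 in edgeR). It was the gene within 1 Mb with the largest expression difference, and its level did not follow doxycycline in a shared direction. Ttn, the giant sarcomere protein on chromosome 2, stood at 82.5 and 172 CPM in 55-20 and 20.9 and 51.2 CPM in 55-38.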

How the data were processed

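Per library, the deposited table gives unnormalized counts of each gene: Cast reads, 129 reads and their sum at exonic SNPs, and the total reads of the gene. The fraction deposited by the authors is Cast reads over all allele-specific reads, and in every row it matched the counts. Single 43 bp reads were aligned by the authors to 129/Sv and Cast/Ei versions of mm10, and the submitters' processing notes name TopHat2 2.0.6, SAMtools and HTSeq 0.6.1. The authors' minimum of reads is already applied. Listed genes have at least 8 allele-specific reads, and other genes are missing, not 0, which favours genes read in every library. The allele counts are summed over the SNPs of a gene, so a read over several SNPs can be counted more than once. Allele counts exceeded the total reads of the gene in 713 and 255 genes in untreated and treated neurons of label 20. They did so in 709 and 689 genes in those of label 38. The precision of a ratio is limited by separate reads, and these sums, 7068712 to 10698003 per library, can overstate them. The tests took the sums as counts, and the part of repeat counting in them was not tested.

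Groups came from the labels. Nothing in them says that libraries of a subline came from separate cultures, so p-values measure the spread between these libraries. A further 8 libraries labelled 292 were not assigned and not used. The members and gene lists were chosen with earlier results of these data known.

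Chromosomes were summarised by the median over genes listed in all 4 libraries. Total counts (at least 10 in each library) were tested in R 4.3.3 by edgeR 4.0.16, with TMM factors, a subline term and a doxycycline term, which leaves 1 residual degree of freedom, by the quasi-likelihood F test, with p adjusted by Benjamini-Hochberg and a threshold of 0.05. CPM are scaled with the TMM factors. Allelic ratios were tested alike on 2 columns per library, with terms for library and for allele by doxycycline. The response to doxycycline was tested with 4 ESC libraries of label 38 in the fit. Fold changes are not shrunk, and SE is the log2 fold change over the root of F. Medians and figures were made with numpy 2.4.6, pandas 2.3.3 and matplotlib 3.10.9 under Python 3.11.15. Gene names matched RefSeq for 13237 of 14003 genes.

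Genes were named by rule: the 5 largest allelic changes each way among called genes with at least 50 allele-specific reads in each library, the 3 largest on chromosomes 12 and 19, genes within 1 Mb of the transgene, Xist, Nampt, Tcl1, Pole2, genes whose response to doxycycline differed, and up to 4 genes per list. 1 gene is not reported here. Others are said to be named after their values were seen. Alternatives were DESeq2 1.42.0, other size factors, count minimums, summaries, no doxycycline term, and each library left out. List medians of each pair alone were added after seeing the data.

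On simulated data of 11210 genes for the expression comparison, edgeR called 62% of genes changed by 1 and 100% of those changed by 2 in log2, and 6 unchanged genes. For the allelic ratio, with 11292 genes, it called 30% and 92%, and 6 unchanged genes. The simulated expression had the same spread for all genes, and the spread of the ratio was assumed. Neither had an effect of doxycycline or a library that stood apart. These shares therefore do not give the power of the real comparison.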

Additional observations from a re-analysis of the deposited data

Results flagged for a closer look

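The allelic response to doxycycline differed between the sublines in 12 genes by the interaction term of edgeR's quasi-likelihood test. Each arm is 1 neuron library, and the spread comes from ESC replicates. The values below are the log2 response of Cast to 129 reads in 55-20 less that in 55-38. The count was 4 with DESeq2 and 11 with at least 50 reads in each library. In Actb (-6.82), 4933421O10Rik (-6.64), Smarca5 (-5.46), Gapdh (-5.40) and Rpl14 (-4.46), the ratio of the treated 55-20 library was between 0.00471 and 0.0507, against 0.349 or more in the other 3 libraries. Gapdh, for example, had 30 Cast and 1298 129 reads there, against 1254 and 1361 in untreated 55-20. In Gm10653 (-4.84) and Rps19 (-1.10) the treated 55-20 library also had the lowest ratio. Tmem38b (-4.59) had ratios of 0.199 and 0.120 in untreated and treated 55-20 and 0.0488 and 0.403 in 55-38. In untreated 55-38 it had 99 Cast and 1928 129 reads, more than the 329 reads counted on the gene. Of the positive differences, Npm3 (2.11), Zfp277 (1.98) and Tuba1c (1.47) had their highest ratio in the treated 55-20 library. Zfp277 is on chromosome 12 and Npm3 on chromosome 19. Several of these genes have processed copies elsewhere in the genome, and the treated 55-20 library gave fewer allele-specific reads per counted read than the others. The part of either in these values was not tested.

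The median ratio of chromosome X moved by 0.0159 with doxycycline in 55-20 and by -0.0130 in 55-38, in opposite directions. With 1 library per subline and treatment this difference was not tested.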

How the results depend on the processing

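No paired analysis was possible because the neuron libraries carry no replicate number in their labels. A library left out was fitted without a doxycycline term, and the lone library of its subline is assumed to vary like the other subline.

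The number of genes with different expression moved from 0 to 40 (2 higher and 38 lower in 55-20) with at least 50 counts, to 50 (2 and 48) with RLE size factors, to 48 (2 and 46) with TMM factors without chromosomes 12, 19 and X, and to 1002 (333 and 669) with DESeq2. It was 0 without a count minimum, without a doxycycline term and with the spread pooled with ESC libraries (6715 genes tested). With a library left out it ranged from 0 to 4083 (0 to 1899 higher, 0 to 2184 lower).

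The number of genes with a different allelic ratio moved from 509 to 112 (110 higher and 2 lower) with DESeq2, 163 (159 and 4) without a doxycycline term and 289 (275 and 14) with the spread pooled with ESC libraries, where only 6777 genes listed in all 8 libraries were tested. With a library left out it ranged from 0 to 346 (0 to 318 higher, 0 to 28 lower). The number of genes with a different response to doxycycline moved from 12 to 4 (0 above and 4 below 0) with DESeq2.

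The chromosome 12 ratio difference was 0.0962 with at least 50 reads, 0.0812 from pooled reads, 0.0891 as a mean over genes and 0.0975 over all listed genes. The shift upon doxycycline was 0.0619 (pooled) and 0.0769 (mean) in 55-20, and 0.0671 (at least 50 reads), 0.0571 (pooled) and 0.0755 (mean) in 55-38. Under the other summaries and settings, the ratio differences of chromosomes 19 and X and both expression differences moved by less than the SD between pairs. A pair taken alone always lies within that SD of the mean of both, so it cannot show a move. On chromosome X the difference was -0.0361 in the untreated and -0.00717 in the treated pair, so this SD is wide there.

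Xist expression turned to 0.15 without a doxycycline term. Left-out libraries turned the sign of expression differences that ranged over -0.00635 to 1.02 (Dppa5a), -3.38 to 0.50 (Map2), -1.54 to 0.69 (Tubb3), -3.65 to 1.05 (Dcx), -3.04 to 0.0612 (Dpysl3), -3.26 to 0.0937 (Mapt) and -1.15 to 0.82 (Xist), and of allelic differences over -0.62 to 2.71 (Syne3), -1.82 to 2.31 (Snhg10), -0.83 to 2.40 (Tcl1), -1.66 to 2.24 (Ppp4r4), -3.08 to 5.31 (D430019H16Rik) and -0.28 to 2.70 (Xist). The left-out fits have no doxycycline term and leave the sublines unequal in treatment. A change of sign in them cannot be told apart from a response to doxycycline. The causes were not tested. The chief limits are 1 library per subline and treatment, the untreated 55-38 library in expression, the treated 55-20 library in allele reads, and genes missing below the read minimum.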
